A study of Mus musculus with 16 samples.

Results

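Genes of the B lymphocyte lineage were examined in RNA-seq data from the seminal vesicles (SV) of mice exposed to diethylstilbestrol (DES) after birth. The 9 genes are *Cd79a*, *Cd79b*, *Ms4a1*, *Pax5*, *Blk*, *Cd22*, *Cr2*, *Pou2af1* and *Tnfrsf13b*, taken by name from a table of 31274 genes, and all 9 were found in it. The 16 samples fall into 4 groups of 4, all from male C57BL/6 mice at week 5 of age. WT-veh and WT-DES are wild-type mice, born to pregnant females obtained from a supplier. The groups αERKO-veh and αERKO-DES are global knockouts of oestrogen receptor α (ERα, gene *Esr1*), bred from heterozygous parents. Genotype and the source of the mice thus cannot be told apart. DES, a synthetic oestrogen, was injected under the skin in corn oil at 2 µg per pup per day from day 1 to day 5 after birth, and the veh groups received corn oil alone. The study's RNA extraction methods name pools of mice for WT-DES, fewer in number than the 4 sequenced WT-DES samples, and individual mice for the other groups. Whether each WT-DES sample is a pool, and whether the 4 are independent, is not given in the sources used here. P-values measure the spread between these samples, as 1 estimate per gene shared by all 4 groups. For most members the WT-DES samples were spread more widely than the others, so this estimate understates their spread and overstates that elsewhere. P-values of comparisons with WT-DES may therefore be too small.

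B lymphocytes arise in the bone marrow and recognise antigen through a membrane immunoglobulin that signals by way of the CD79A and CD79B chains. The kinase BLK, the inhibitory lectin CD22, the membrane protein CD20 (*Ms4a1*) and complement receptor 2 (*Cr2*) act at or around this receptor. PAX5 is the transcription factor that commits cells to the lineage, OBF-1 (*Pou2af1*) is a coactivator of octamer-binding factors, and TACI (*Tnfrsf13b*) is a receptor for the survival ligands BAFF and APRIL. B cells that mature into plasma cells switch off *Pax5*, *Ms4a1* and *Cd22* and turn to the secretion of antibody.

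Values are FPKM, a fragment count corrected for exon length and library size, as deposited by the authors, so levels can be set side by side between genes of different length. The depth of the libraries is not known from these values. The sum of FPKM per sample was 375207 to 437619 in WT-DES and 479045 to 652708 in the other groups. *Esr1* was listed at 0.91 to 1.75 FPKM in the αERKO samples and at 2.81 to 19.6 in the WT samples, so the groups did not overlap and some signal from the disrupted gene remained. The summed level of 10 SV secretion genes identified the tissue in every group but was lower in WT-DES, at 2633 to 8826 FPKM. In whole tissue, fewer cells of a type and less RNA per cell cannot be told apart. Skeletal muscle and fat genes also varied between samples, for 7 muscle genes from a sum of 579.6 to 1865 within αERKO-veh, and 6 fat genes reached a sum of at most 60.97 across αERKO-DES against at least 824.7 across WT-DES. Their part in the results below was not tested.

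The 9 genes lie at 9 separate loci on 7 chromosomes (GRCm38, GENCODE M21). *Cd79a* lies on chromosome 7 from 24897381 to 24902197 (plus strand) and *Cd22* on the same chromosome from 30865402 to 30880342 (minus strand). *Cd79b* lies on chromosome 11 from 106311341 to 106314762 (minus strand) and *Tnfrsf13b* on the same chromosome from 61126755 to 61149372 (plus strand). *Ms4a1* is on chromosome 19 (11249675 to 11266241, minus), *Pax5* on chromosome 4 (44524757 to 44710487, minus), *Blk* on chromosome 14 (63372836 to 63417037, minus), *Cr2* on chromosome 1 (195136811 to 195176716, minus) and *Pou2af1* on chromosome 9 (51213708 to 51240080, plus). Exons of *Cd22* share 479 bases with *Gm29439* on the opposite strand, and those of *Pax5* share 636 bases with *5730488B01Rik* and 125 with *Gm12462*. The strandedness of the libraries is not given in the sources used here, so reads from these overlaps cannot be told apart.

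The RefSeq promoters (GRCm38.p6, 250 bases before to 50 bases after each start) of 6 of the 9 genes were searched on both strands for sites of factors that act in B cells. *Cd79b*, *Ms4a1* and *Blk* had no entry in that table. The palindromic site of EBF1, with 2 free bases at its centre, was present in 1 of the 6, *Cd22*, and in 0.904% of all 32851 promoters. The octamer ATGCAAAT was in 0 of the 6 (1.74% of all) and the ETS site GAGGAAGT in 0 of the 6 (3.2% of all). Shorter forms that lie inside these letters were searched after the promoters had been read. AGGAAGT was in *Cd79a* and *Tnfrsf13b* (9.35% of all) and TGCAAAT in *Pou2af1* (4.02% of all). The 4 stretches that hold a match are shown because they belong to members that rose with DES, with the matched letters in capitals, 5′ to 3′ on the strand of the gene. They lie at chr7:30879058-30879087 for *Cd22*, chr7:24897431-24897460 for *Cd79a*, chr11:61126693-61126722 for *Tnfrsf13b* and chr9:51213448-51213477 for *Pou2af1*, and each match ends 40, 49, 45 and 225 bases, respectively, before the RefSeq start. The stretches of *Cd22* and *Cd79a* fall within the longer gene bounds of GENCODE.
Cd22: tcctgcaagaTCCCTGGGGActcacacaga
Cd79a: cacggctgaacAGGAAGTgaggcggagttt
Tnfrsf13b: ggggaaaacccAGGAAGTgtggcctaggcc
Pou2af1: ccgtggctgtgTGCAAATggccttggcctc

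In WT SVs, neonatal DES was followed at week 5 by higher levels of 7 of the 8 B cell genes that could be tested, with ratios of mean FPKM from 3.14 for *Pou2af1* to 28.1 for *Cd22*. *Cr2* was not among them. Of all genes tested, 28.9% were called higher, and the 7 members entered the test only through their WT-DES level, so this count is a description. No member passed the test between αERKO-DES and αERKO-veh, and in αERKO-DES the 9 genes together summed to 2.05 to 2.54 FPKM against 7.59 to 40.9 in WT-DES. WT-veh samples summed to 2.76 to 3.40 and αERKO-veh samples to 1.39 to 2.64. The 4 WT-DES samples were far apart, and for most members sample 2 was the highest and sample 1 the lowest.

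Both signalling chains of the B cell receptor were near the bottom of the scale outside WT-DES. The FPKM of *Cd79a* was 0.08, 0.04, 0.20 and 0.16 across WT-veh samples 1 to 4, 0.66, 5.77, 2.75 and 0.84 across WT-DES, 0.20, 0.08, 0.12 and 0.08 across αERKO-veh, and 0.04, 0.08, 0.09 and 0 across αERKO-DES. All WT-DES samples lay above all others, with samples 2 and 3 well above samples 1 and 4. *Cd79a* rose in WT-DES relative to WT-veh by a log2 change of 1.41 (SE 0.32, limma adjusted p = 0.00095), from a mean FPKM of 0.12 ± 0.073 to 2.51 ± 2.37 (SD, n = 4 each). *Cd79b* was the most abundant member in each WT-DES sample, at 2.35, 15.8, 8.5 and 3.78 FPKM, against 0.57, 0.83, 0.72 and 0.94 across WT-veh, 0.91, 0.49, 0.23 and 0.53 across αERKO-veh, and 0.38, 0.41, 0.29 and 0.41 across αERKO-DES. The WT-DES values again did not overlap those of any other group. The log2 change of *Cd79b* in WT-DES relative to WT-veh was 2.02 (SE 0.35, limma adjusted p = 0.000107), the largest of the 8 members tested.

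**Figure D1:**
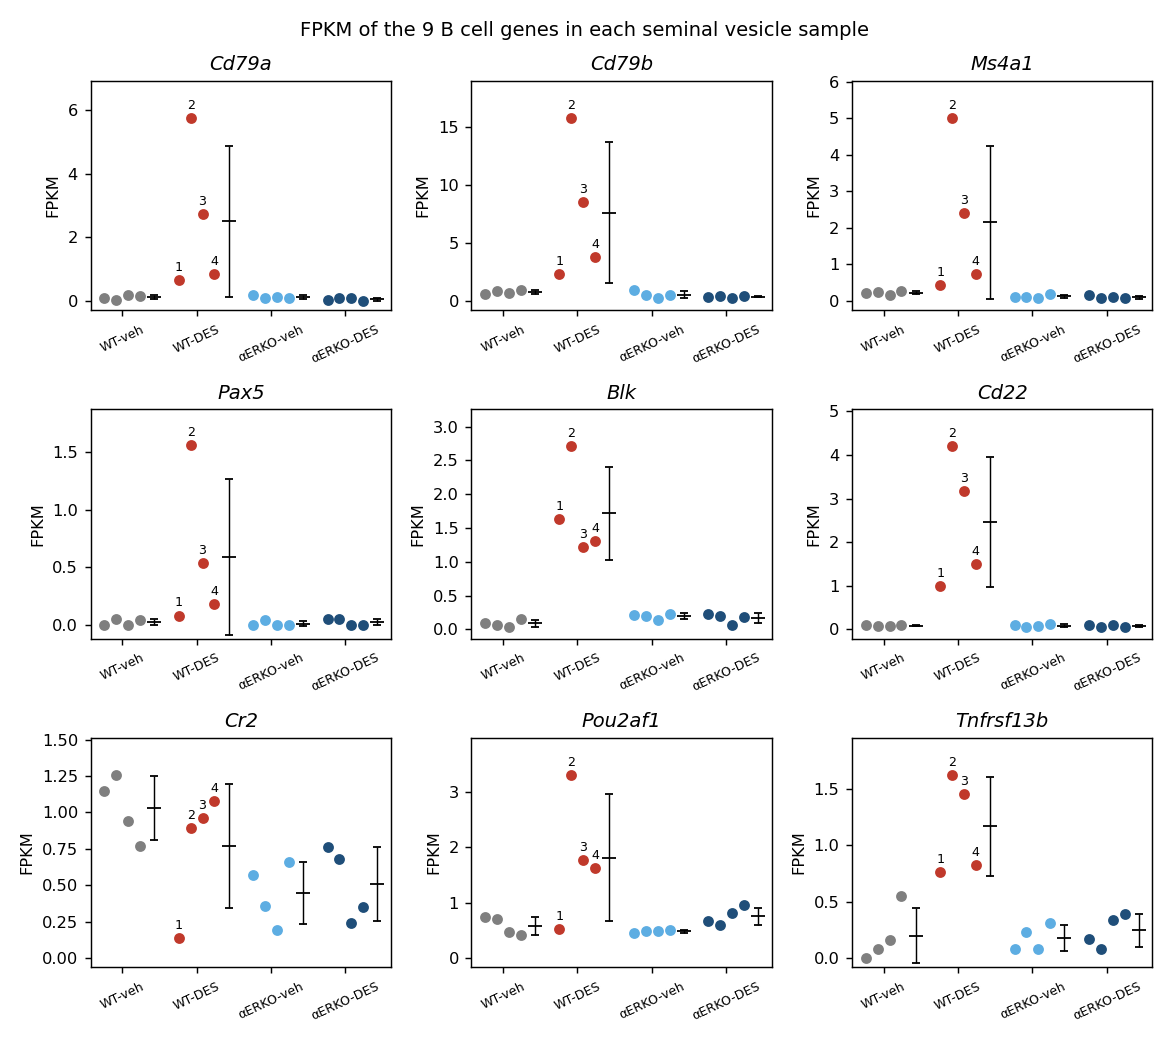
FPKM (y axis, linear, with its own range in each panel) of the 9 B cell genes in the 4 samples of each group (points), with the group mean and SD beside them (black) and WT-DES samples numbered 1 to 4. In 7 panels all WT-DES points lie above all WT-veh points, sample 2 is the highest WT-DES sample in 8 panels, and *Cr2* and *Pou2af1* are the panels where WT-DES sample 1 overlaps or falls below WT-veh.

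The genes of the inhibitory lectin and of CD20 followed the same course. *Cd22* was at 0.09, 0.08, 0.07 and 0.11 FPKM across WT-veh, 0.99, 4.20, 3.17 and 1.49 across WT-DES, 0.10, 0.05, 0.07 and 0.12 across αERKO-veh, and 0.10, 0.05, 0.11 and 0.06 across αERKO-DES. The 3 groups outside WT-DES shared 1 narrow range, and the lowest WT-DES sample was well above it. The log2 change of *Cd22* in WT-DES relative to WT-veh was 1.57 (SE 0.22, limma adjusted p = 1.43e-05). *Ms4a1* was at 0.23, 0.24, 0.17 and 0.26 across WT-veh, 0.45, 5.02, 2.42 and 0.75 across WT-DES, 0.11, 0.12, 0.07 and 0.19 across αERKO-veh, and 0.15, 0.07, 0.11 and 0.07 across αERKO-DES. Its lowest WT-DES value, in sample 1, was less than double the highest WT-veh value, whereas sample 2 was more than an order of magnitude above sample 1. The log2 change of *Ms4a1* was 1.14 (SE 0.31, limma adjusted p = 0.00418), and 0.75 without WT-DES sample 2 (limma adjusted p = 0.00602).

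*Blk*, the SRC family kinase of the receptor, had the smallest error of the members that rose. It was at 0.10, 0.06, 0.04 and 0.16 FPKM across WT-veh, 1.63, 2.71, 1.22 and 1.31 across WT-DES, 0.22, 0.20, 0.14 and 0.23 across αERKO-veh, and 0.23, 0.20, 0.06 and 0.18 across αERKO-DES. The WT-DES samples were closer together than for the receptor chains, and sample 1 was here the second highest. The log2 change of *Blk* in WT-DES relative to WT-veh was 1.29 (SE 0.14, limma adjusted p = 1.05e-06).

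*Cr2*, which mature B cells and follicular dendritic cells carry, behaved differently from the other members. Its FPKM was 1.15, 1.26, 0.94 and 0.77 across WT-veh, 0.14, 0.89, 0.96 and 1.08 across WT-DES, 0.57, 0.36, 0.19 and 0.66 across αERKO-veh, and 0.76, 0.68, 0.24 and 0.35 across αERKO-DES. It was the most abundant member in WT-veh, where its mean of 1.03 ± 0.218 FPKM exceeded the 0.765 ± 0.158 of *Cd79b* by little more than the spread (SD, n = 4 each), and WT-DES samples 2 to 4 lay within the range of WT-veh while sample 1 lay below all WT-veh samples. The log2 change in WT-DES relative to WT-veh was −0.23 (SE 0.19, 95% confidence interval −0.63 to 0.17, limma adjusted p = 0.278), and −0.03 without WT-DES sample 1. Under quantile normalization, which forces all samples to 1 distribution, it was −0.57 and passed (limma adjusted p = 0.0072).

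Among the regulators, *Pax5*, the lineage commitment factor, did not reach the minimum for testing, which was a mean above 1 FPKM in at least 1 group. It was listed at 0, 0.05, 0 and 0.04 FPKM across WT-veh, 0.08, 1.56, 0.54 and 0.18 across WT-DES, 0, 0.04, 0 and 0 across αERKO-veh, and 0.05, 0.05, 0 and 0 across αERKO-DES. Every WT-DES sample was above every other sample, although sample 1, at 0.08, was just above the 0.05 of the highest samples elsewhere. In a fit of all 31274 genes without the minimum, the log2 change of *Pax5* in WT-DES relative to WT-veh was 0.55 (SE 0.19, limma adjusted p = 0.0354).

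*Pou2af1*, the octamer coactivator, was measurable in all groups. It was at 0.74, 0.70, 0.46 and 0.41 FPKM across WT-veh, 0.53, 3.32, 1.77 and 1.63 across WT-DES, 0.45, 0.49, 0.49 and 0.51 across αERKO-veh, and 0.66, 0.60, 0.81 and 0.95 across αERKO-DES. WT-DES sample 1 lay inside the WT-veh range and samples 2 to 4 above it. The log2 change in WT-DES relative to WT-veh was 0.75 (SE 0.22, limma adjusted p = 0.00645), and 0.33 under quantile normalization, which did not pass (limma adjusted p = 0.15).

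*Tnfrsf13b*, the gene of the receptor TACI, was at 0, 0.08, 0.16 and 0.55 FPKM across WT-veh, 0.76, 1.63, 1.46 and 0.83 across WT-DES, 0.08, 0.23, 0.08 and 0.31 across αERKO-veh, and 0.17, 0.08, 0.34 and 0.39 across αERKO-DES. The WT-DES samples formed an upper pair and a lower pair, and the lower pair was still above WT-veh sample 4. The log2 change was 0.86 (SE 0.17, limma adjusted p = 3e-04).

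The order of the members by mean FPKM in WT-DES was *Cd79b* (7.61 ± 6.06), *Cd79a* (2.51 ± 2.37), *Cd22* (2.46 ± 1.49), *Ms4a1* (2.16 ± 2.09), *Pou2af1* (1.81 ± 1.15), *Blk* (1.72 ± 0.685), *Tnfrsf13b* (1.17 ± 0.440), *Cr2* (0.768 ± 0.426) and *Pax5* (0.59 ± 0.676; SD, n = 4 each). All neighbours in this order differed by less than the larger SD of the pair, the step from *Cd79b* to *Cd79a* included, yet *Cd79b* was above *Cd79a* in 4 of 4 samples.

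Of the members, 8 passed the minimum, 7 of them in WT-DES only and *Cr2* in WT-veh only. The 7 that passed through WT-DES had to be higher there. Each was called higher after DES in WT mice, at a limma adjusted p up to 0.05 and a 1.5-fold or larger ratio of means, as were 28.9% of the 15988 genes tested, while 23.9% were called lower. Without any minimum, 8 of 9 were called higher, against 19.2% of 31274 genes. The 7 members whose WT-DES samples all lay above all WT-veh samples were *Cd79a*, *Cd79b*, *Ms4a1*, *Pax5*, *Blk*, *Cd22* and *Tnfrsf13b*, and 32.7% of the genes tested showed the same. The median log2 change was 1.21 over the 8 members and −0.01 over all genes tested. Rescaling each sample without the 20 genes of highest mean FPKM moved the median of all genes to 0.38 and the share of higher calls from 54.7% to 79.2%. The 7 members were called higher there too, with log2 changes of 0.98 to 2.32, each above that shifted median.

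Leaving out WT-DES sample 2 left the 7 calls in place but lowered the ratios of mean FPKM relative to WT-veh, to 11.8 from 20.9 for *Cd79a*, to 6.37 from 9.94 for *Cd79b* and to 5.36 from 9.6 for *Ms4a1*. The ratio of *Pax5* went to 11.9 from 26.2, and that of *Blk* to 15.4 from 19.1.

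**Figure D2:**
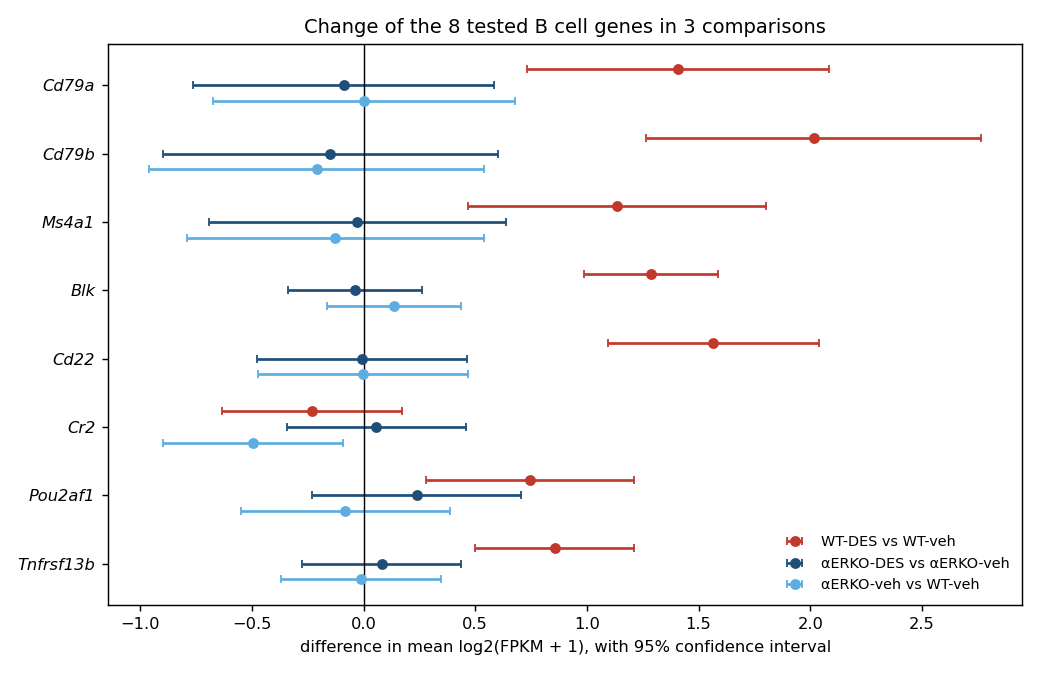
Log2 change (x axis, difference in mean log2(FPKM + 1), with 95% confidence interval from limma) of the 8 tested B cell genes in 3 comparisons. The intervals for WT-DES relative to WT-veh lie above 0 for all genes but *Cr2*, those for αERKO-DES relative to αERKO-veh all include 0, and that of *Cr2* in αERKO-veh relative to WT-veh, −0.90 to −0.09, lies below 0.

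The comparison of αERKO-DES with WT-DES asked whether the state of these genes after DES differed with ERα genotype. Genotype goes with the source of the mice, and possibly with pooling, and these cannot be told apart. The comparison uses the same WT-DES samples as the one above. There were 7 of 8 members called lower in αERKO-DES, with 29.6% of all genes tested called lower and 23.7% higher. For all members but *Cr2* and *Pou2af1* the WT-DES samples lay above every αERKO-DES sample, as they did for 32.7% of all genes tested. The log2 change was −1.5 for *Cd79a* (limma adjusted p = 0.00056), −2.37 for *Cd79b* (2.09e-05), −1.29 for *Ms4a1* (0.00163), −1.19 for *Blk* (2.05e-06), −1.58 for *Cd22* (1.23e-05) and −0.79 for *Tnfrsf13b* (0.000591). *Pou2af1* was called at −0.59 (limma adjusted p = 0.0242), a call that was lost without WT-DES sample 2 (−0.35), without WT-DES sample 3 (−0.57), without αERKO-DES sample 1 or sample 2 (−0.57 and −0.55), in a model of only these groups (limma adjusted p = 0.0892) and under quantile normalization (−0.0114, limma adjusted p = 0.964). *Cr2* was at −0.21 (95% confidence interval −0.61 to 0.20, limma adjusted p = 0.334). Rescaling moved the share of higher calls among all genes from 44.5% to 23.6%.

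The interaction, which is the DES effect in WT less the DES effect in αERKO on the log2 scale, tested whether these effects differed. It was called positive for 6 of 8 members, against 29.6% of all genes tested, with a further 26.9% of genes called negative. The 7 members that passed the minimum through WT-DES alone were favoured to be positive here and lower in the comparison before, so these counts are a description too. Without any minimum, 8 of 9 members were called lower in αERKO-DES than in WT-DES, against 20.5% of all 31274 genes, and 5 of 9 had a positive interaction called, against 15.3%. Its size was 2.16 for *Cd79b* (SE 0.50, limma adjusted p = 0.00125), 1.57 for *Cd22* (0.31, 0.000397), 1.5 for *Cd79a* (0.45, 0.00774), 1.33 for *Blk* (0.20, 3.21e-05), 1.16 for *Ms4a1* (0.44, 0.0279) and 0.77 for *Tnfrsf13b* (0.24, 0.00886). *Ms4a1* lost the call without WT-DES sample 3 (limma adjusted p = 0.0556), without any minimum (0.0628) and under quantile normalization (0.122). *Pou2af1* was at 0.51 (95% confidence interval −0.15 to 1.17, limma adjusted p = 0.152), *Cr2* at −0.29 (−0.86 to 0.28, 0.341) and *Pax5*, in the fit without a minimum, at 0.53 (−0.06 to 1.12, 0.163). *Pou2af1* was called without WT-DES sample 1, at 0.77 (limma adjusted p = 0.00407), and with sample weights, at 0.76 (limma adjusted p = 0.00186).

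Within αERKO, DES left no member called, and 0 of 8 reached an unadjusted p under 0.05 in limma. Of all genes tested, 0.0876% were called higher and 1.41% lower. That background, 239 genes, moved with single libraries. It was 1 to 3 genes without WT-veh sample 3, αERKO-veh sample 2 or 4, or αERKO-DES sample 1, 2 or 3, and 76 to 154 without WT-veh sample 1 or 2 or WT-DES sample 3 or 4. It was 558 without WT-DES sample 1, 653 without αERKO-veh sample 1 and 6 in a model of only these groups. The intervals of the difference ran from −0.76 to 0.59 on the log2 scale for *Cd79a*, −0.90 to 0.60 for *Cd79b* and −0.23 to 0.70 for *Pou2af1*. The narrowest, for *Blk*, ran from −0.34 to 0.26. Their width comes from a spread shared by all groups, WT-DES included, and not from the αERKO samples alone. The lower end for *Cd79a* lies beyond any possible fall, as its αERKO-veh samples were at most 0.2 FPKM. The levels of all 9 genes in both αERKO groups were at most 0.95 FPKM.

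Without DES, 0 of 8 members were called between αERKO-veh and WT-veh, while 4.5% of all genes were called higher and 2.63% lower. These 1139 genes became 418 without αERKO-veh sample 2 and 715 without WT-veh sample 3. *Cr2* was the 1 member with an unadjusted p under 0.05. All 4 αERKO-veh samples of *Cr2* lay below all 4 WT-veh samples, as did those of 17.1% of genes tested, and the mean was 0.445 ± 0.211 against 1.03 ± 0.218 FPKM (SD, n = 4 each). The log2 change of *Cr2* was −0.50 (SE 0.19, limma adjusted p = 0.0647). It was called without WT-DES sample 1, a sample outside this comparison that enters the shared estimate of spread (limma adjusted p = 0.0171), and in a model of only these groups (limma adjusted p = 0.0268).

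In αERKO-DES relative to WT-veh, which shares its WT-veh samples with the comparison above, 0 of 8 members were called, against 1.21% of genes called higher and 1.97% lower. These 508 genes became 259 and 217 without WT-veh sample 3 or 4, 199 and 206 without αERKO-DES sample 3 or 4, and 883 without αERKO-DES sample 1. *Cr2* had a log2 change of −0.44 (SE 0.19, limma adjusted p = 0.155) and was again the 1 member with an unadjusted p under 0.05. The αERKO-DES samples lay below all WT-veh samples for *Cr2*, *Cd79b* and *Ms4a1*, as for 11.1% of genes. *Cd79b* was at 0.373 ± 0.057 FPKM in αERKO-DES and 0.765 ± 0.158 in WT-veh, and *Ms4a1* at 0.10 ± 0.038 and 0.225 ± 0.039 (SD, n = 4 each).

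The spread among WT-DES samples was wide and largely shared by the members. From the highest to the lowest WT-DES sample, *Pax5* differed 19.5-fold, *Ms4a1* 11.2-fold, *Cd79a* 8.74-fold, *Cr2* 7.71-fold, *Cd79b* 6.72-fold, *Pou2af1* 6.26-fold and *Cd22* 4.24-fold. *Blk* and *Tnfrsf13b* differed 2.22-fold and 2.15-fold. In 7 of 9 members the samples stood in the order 2, 3, 4, 1 from high to low, an order found for 8.35% of the 15988 genes tested. The exceptions were *Blk* (2, 1, 4, 3) and *Cr2* (4, 3, 2, 1). The same order was found for 10 of 15 other B cell surface genes, 4 of 6 plasmacytoid dendritic cell genes and 9 of 13 T cell genes. The summed level of the 13 T cell genes was nearly equal in samples 2 and 3, at 177 and 165 FPKM, and 35.7 and 46.5 in samples 1 and 4. The members summed to 40.9 FPKM in sample 2 and 22.8 in sample 3, with *Cd79b* the largest part. Sample 2 was 1.12 times sample 3 for *Tnfrsf13b*, 1.325 times for *Cd22* and 0.927 times for *Cr2*. It was 1.86 to 2.89 times sample 3 for the other members, and 1.12 times for the T cell gene *Cd3e*. Sample 1 stood apart in the other direction for 7 neutrophil genes, which summed to 962 FPKM there and to 115, 120 and 231 in samples 2, 3 and 4. None of the 8 macrophage genes had the order of the B cell genes.

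**Figure D3:**
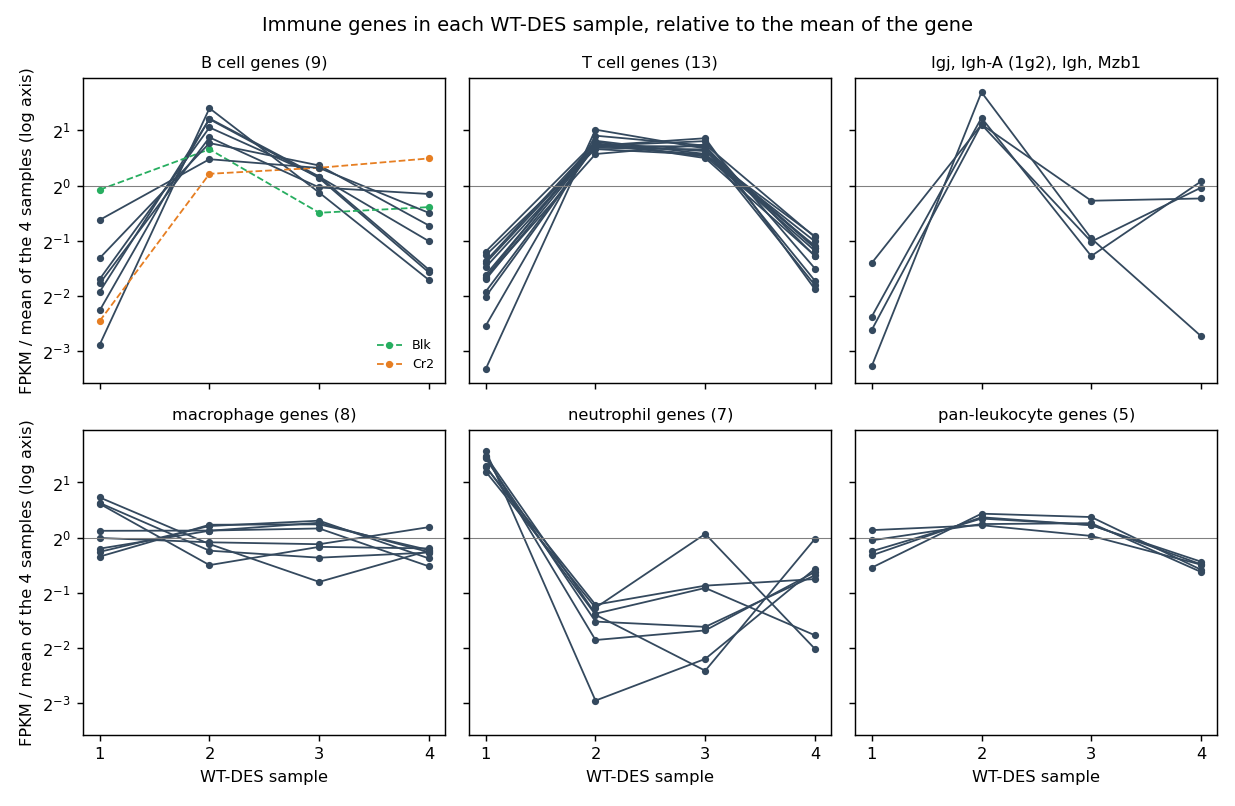
FPKM in each WT-DES sample divided by the mean of the 4 samples for the same gene (y axis, log scale), for 6 sets of genes. Lines join the values of 1 gene and imply no order of the samples. B cell genes peak in sample 2, except *Cr2*, T cell genes are high in samples 2 and 3 alike, neutrophil genes are highest in sample 1, and macrophage and pan-leukocyte genes vary least.

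Set against *Ptprc*, the gene of CD45 that leukocytes share, the WT-DES samples still differed. *Ptprc* was at 22.1, 43.5, 41.7 and 21.5 FPKM in WT-DES samples 1 to 4. For every 100 FPKM of *Ptprc* there were 2.99, 13.3, 6.59 and 3.90 FPKM of *Cd79a*, 10.6, 36.3, 20.4 and 17.6 of *Cd79b*, and 2.04, 11.5, 5.80 and 3.48 of *Ms4a1*. Sample 2 was thus the highest for these genes relative to CD45 as well as in absolute level. *Tnfrsf13b* gave 3.44, 3.75, 3.50 and 3.86, an almost constant ratio. The ratio of *Cd79b* to *Ptprc* in WT-veh, at 15.0, 32.8, 33.3 and 53.1, overlapped that of WT-DES. *Cd79a*, *Ms4a1*, *Pax5*, *Blk*, *Cd22* and *Tnfrsf13b* overlapped in the same way, with *Cd22* at 4.48 to 9.65 in WT-DES and 2.37 to 6.21 in WT-veh. *Pou2af1*, at 2.40 to 7.63 in WT-DES and 19.5 to 27.7 in WT-veh, and *Cr2*, at 0.634 to 5.02 and 30.3 to 49.8, were lower relative to *Ptprc* in every WT-DES sample than in any WT-veh sample. Set against *Cd3e*, a T cell receptor chain, *Cd79a* did not overlap, at 22.3 to 46.0 FPKM per 100 FPKM in WT-DES and 3.15 to 19.4 in WT-veh, nor did *Cd22*, at 28.3 to 39.6 and 6.30 to 13.3. *Pou2af1* and *Cr2* were lower in every WT-DES sample by this measure too, and the other 5 members overlapped.

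Over the 16 samples the members other than *Cr2* were closely related, with Pearson's r of log2(FPKM + 1) between 0.778 and 0.989 for each pair. All of these correlations share the difference between WT-DES and the other groups. Over the 12 samples outside WT-DES, r ranged from −0.780 to 0.663, and *Cr2* had an r of 0.068 to 0.346 with the others over the 16 samples. Among the 10 tested genes most like the mean of the members were *Cxcl11*, *Gm12185*, *Olfr56*, *Rab37*, *Ifit1*, *Ifng*, *Gm4841*, *BC023105* and *Dhx58* (r = 0.982), out of 15980 genes compared, of which 701 had an r above 0.9. *Ifng* encodes interferon-γ, and *Cxcl11*, *Ifit1* and *Dhx58* are known as interferon-stimulated genes. *Olfr56* and *Gm12185* overlap on opposite strands, so their values may not be independent. *Ifng* was at 0.39, 4.18, 3 and 0.86 FPKM in WT-DES.

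Genes around the receptor and its signalling were measured beyond the members. As with the members, a listed gene that passed the minimum through WT-DES alone had to be higher there, so the counts and medians of the lists are descriptions, to be read beside the 28.9% of all genes called higher. Such genes were 4 of the 18 receptor signalling genes tested, 4 of 11 B lineage transcription factors, 8 of 11 other B cell surface genes and 4 of 11 plasma cell genes. Of 18 B cell receptor signalling genes tested, 16 rose in WT-DES relative to WT-veh, 1 fell and 1 was not called, with a median log2 change of 1.39. *Fcgr2b*, the inhibitory Fc receptor, rose from 5.97 to 51.3 FPKM (log2 change 2.92), and the phosphatase gene *Ptpn6* from 19.9 to 32.1 (0.65). *Blnk*, the adaptor that links the receptor to calcium signalling, fell from 76.3 to 30.6 FPKM (log2 change −1.34, SE 0.17, limma adjusted p = 5.04e-06), and *Cd81* was at 202 and 215 FPKM. *Blnk* and *Cd81* were thus abundant in WT-veh, where *Cd79a* was at 0.04 to 0.20. Of 11 B lineage transcription factors, 9 rose, with a median of 1.28, among them *Spi1* (log2 change 2.28), *Irf8* (1.13) and *Foxo1* (0.89), which other leukocytes or tissues also use. *Ebf1* and *Spib*, named here after their values were seen, rose by 1.82 and 2.12. *Tcf3* and *Bcl11a* were not called, at 0.26 and 0.19. Of 15 other B cell surface genes, 11 were tested and all 11 rose, with a median of 1.29, led in level by *Ly6d* (39.5 to 339 FPKM), which some epithelia also express, and followed by *Cd37* (2.75 to 16.9), *Cd40* (1.32 to 12.7) and *Cd180* (0.86 to 5.83). In these 3 lists together no gene was called between αERKO-DES and αERKO-veh, and *Spi1* was the 1 gene called lower in αERKO-veh relative to WT-veh (log2 change −0.53, limma adjusted p = 0.029). In αERKO-DES relative to WT-veh, *Fcgr2b* (−0.78) and *Pik3ap1* (−0.68) were called lower.

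**Figure D4:**
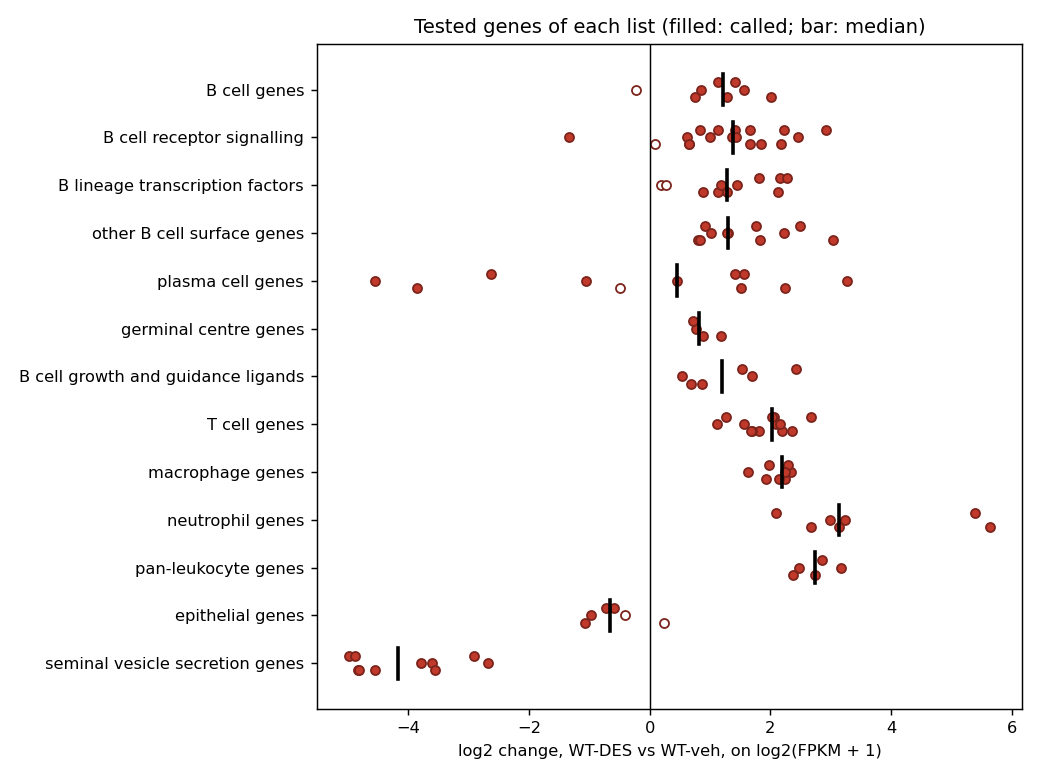
Log2 change in WT-DES relative to WT-veh (x axis) of each tested gene in 13 lists, filled where called and open where not, with the median of each list as a bar. All points of the T cell, macrophage, neutrophil and pan-leukocyte lists lie above 0, the B cell list does so but for *Cr2*, *Blnk* is the 1 receptor signalling gene below 0, the plasma cell list is split between positive and negative values, and the SV secretion genes lie below −2.

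Plasma cell genes were divided. Of 11 tested, 6 rose, 4 fell and 1 was not called, with a median of 0.46. *Igj*, the joining chain of secreted antibody, was at 3.37, 41.0, 7.21 and 18.4 FPKM in WT-DES samples 1 to 4 and at most 0.74 elsewhere (log2 change 3.27, SE 0.47, limma adjusted p = 1.66e-05). The heavy chain entry *Igh-A (1g2)* was at 39.6, 225, 51.8 and 102 in WT-DES and at most 3.10 elsewhere (log2 change 4.84, limma adjusted p = 1.75e-07), and *Igh* at 1.31, 41.0, 6.52 and 1.91 (2.28, 0.00363). *Igj* and *Igh-A (1g2)* were higher in sample 4 than in sample 3, the reverse of *Cd79a*, *Cd79b*, *Ms4a1*, *Pax5* and *Cd22*. *Ighg* was at 0.55, 2.38, 0 and 1.07 and was not tested, and the symbol rule for immunoglobulins also caught *Iglon5*, a neural adhesion gene that is left out here. The genes that fell were *Xbp1*, *Fkbp11*, *Derl3* and *Eaf2*, of which the first 3 serve protein folding and secretion in secretory cells of many kinds. *Fkbp11* went from 264 to 18.0 FPKM and *Xbp1* from 233 to 112. The summed SV secretion genes fell with them, all 10 called lower with a median log2 change of −4.17, and their part in the fall of the plasma cell list was not tested.

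Precursor genes were sparse. Of the 7 only *Il7r*, which T cells also express, reached the minimum, and it rose from 0.148 to 4.30 FPKM. The surrogate light chain genes *Vpreb1* and *Vpreb2* were at 0.608 and 0.59 FPKM in WT-veh and 0.58 and 0.505 in WT-DES. All 4 germinal centre genes tested, of 6 found in the table, rose (median 0.825), 2 of them having passed the minimum through WT-DES alone. *S1pr2* rose from 8.29 to 20.1 and *Bcl6* from 6.50 to 12.9 FPKM, both expressed outside B cells too. All 6 ligand genes tested, of 9 listed, rose (median 1.2), 1 of them having passed through WT-DES alone. *Tnfsf13b*, which encodes the TACI ligand BAFF, was at 9.36, 13.6, 10.5 and 11.3 in WT-DES and 0.95 to 1.80 in WT-veh (log2 change 2.42, SE 0.13, limma adjusted p = 1.58e-09). From the highest to the lowest WT-DES sample, its fold difference was smaller than that of any member. *Cxcl13*, the chemokine that draws B cells into follicles, was at 5.43, 9.45, 10.5 and 4.71 in WT-DES and 1.47, 1.2, 1.17 and 4.39 in WT-veh (log2 change 1.53, limma adjusted p = 0.00145). *Cxcl12* rose from 94.0 to 316 FPKM and *Tnfsf13* from 7.09 to 10.9. Among 7 tested genes of follicular dendritic cells and lymphoid stroma, 3 of which passed through WT-DES alone, 5 rose (median 0.914), including *Ltb* (2.08 to 27.8 FPKM) and *Glycam1*, at 0 in every WT-veh sample and at 10.4, 11.8, 15.1 and 3.27 in WT-DES.

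Markers of other leukocytes moved with the members. All 13 T cell genes (median log2 change 2.02), 8 macrophage genes (2.19), 7 neutrophil genes (3.14) and 5 pan-leukocyte genes (2.74) that were tested were called higher in WT-DES relative to WT-veh, as were 4 of 5 plasmacytoid dendritic cell genes (1.14), against 28.9% of all genes tested. Of the genes tested in these lists, 8 T cell, 5 neutrophil, 2 plasmacytoid dendritic cell and 0 macrophage or pan-leukocyte genes had passed the minimum through WT-DES alone. The median of the 8 B cell genes, 1.21 on the same scale, was below those of the T cell, macrophage and neutrophil lists, but this scale compresses the change of genes near or below 1 FPKM and the lists were not compared by a test. In absolute level, the 9 members summed to 7.59 to 40.9 FPKM in WT-DES, the 13 T cell genes to 35.7 to 177 and the 8 macrophage genes to 176 to 243. Of 6 epithelial genes 4 were called lower and none higher, with *Cldn4* at a log2 change of −0.41 and *Cdh1* at 0.25, neither of them 1.5-fold apart.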

How the data were processed

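RNA-seq of 16 SV samples gave paired reads of 126 nt on an Illumina HiSeq. The authors removed reads with an average quality of 20 or less, mapped the rest to mm10 with TopHat2 2.0.4 and deposited FPKM values (Cufflinks 2.0.2) with 2 decimals. The annotation and any scaling between libraries are not given in the sources used here. Depth is unknown, and the 4 samples per group limit the precision. Genes entered the test where the mean of some group exceeded 1 FPKM (15988 genes), and log2(FPKM + 1) was fitted with limma 3.58.1 (R 4.3.3) in 1 model of 16 samples, with a trended variance and Benjamini-Hochberg correction across these genes. Calls needed an adjusted p up to 0.05, means that differed at least 1.5-fold and a mean above 1 in 1 of the groups compared. Interactions needed a 1.5-fold difference. These thresholds follow the study, whose test on reads (Cuffdiff) could not be repeated on FPKM. Log2 changes on this scale understate those of low genes. On simulated data with 200 changed genes (WT-DES vs WT-veh, 15988 genes), 89.7% with a log2 size of 1 and 98.9% with a size of 2 were called, and 4.08% of calls were false. The changed genes were drawn from those above about 1 FPKM in WT-veh, with the same spread in all groups. The members that rose lay below that level in WT-veh and were far apart in WT-DES, so these shares do not describe them.

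The members and gene lists were chosen with earlier results of these data known. Named genes are the 9 members, up to 4 genes per list with the highest mean FPKM in WT-DES, the immunoglobulin entries of highest mean, *Ptprc* and the 10 genes most correlated with the members' mean. Others were named after their values were seen (*Ebf1*, *Spib*, *Bcl11a*, *Derl3*, *Eaf2*, *Pik3ap1* and *Ighg*). Some genes that this rule names are not reported here. The lists hold receptor signalling, lineage transcription factor, surface, plasma cell, precursor, germinal centre, ligand, lymphoid stroma, T cell, macrophage, neutrophil, plasmacytoid dendritic, pan-leukocyte, epithelial, secretion, muscle and fat genes. Python 3.11.15 with pandas 2.3.3 and matplotlib 3.10.9 drew the figures.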

Additional observations from a re-analysis of the deposited data

Results flagged for a closer look

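The change with DES differed between WT and αERKO, by the limma interaction test, for *Cd79a* (log2 difference 1.5), *Cd79b* (2.16), *Ms4a1* (1.16), *Blk* (1.33), *Cd22* (1.57) and *Tnfrsf13b* (0.775). These genes passed the minimum through WT-DES alone and were favoured to be positive. A positive interaction was called for 29.6% of all genes tested. The call of *Ms4a1* was lost without WT-DES sample 3, without any minimum and under quantile normalization. In 1 of 36 combinations of member and group a single sample stood apart from the other 3. It was *Pax5* in αERKO-veh, where sample 2 was at 0.04 FPKM and the others were listed at 0, a gap of 1 times the whole range, past the 95% critical value of Dixon. Chance marks about 1 in 20 such groups when values are continuous. With the other samples listed at 0, the gap is the whole range whatever the value of sample 2. The floor thus fixed this outcome, and it does not mark sample 2 as unusual.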

How the results depend on the processing

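The number of members called was recomputed under 9 other settings and without each sample. Leaving out 1 sample gave 7 to 7 calls between WT-DES and WT-veh, 6 to 7 between αERKO-DES and WT-DES, 5 to 7 for the interaction and 0 to 1 between αERKO-veh and WT-veh. A minimum of 5 FPKM left 1 member, *Cd79b*, to be tested, and 1 called in each of the first 3 of these, since fewer genes entered. *Cr2* was the 1 call between αERKO-veh and WT-veh under quantile normalization, in a model of only the groups compared and with sample weights, and the 1 call between αERKO-DES and WT-veh with sample weights. The cause was not tested. Replicate numbers did not pair the samples (r of deviations −0.215 to 0.277 for equal numbers, −0.301 to 0.261 for others), and a fit with a replicate block gave the same counts, 7, 7 and 6 for the first 3 and 0 for the others.

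Quantile normalization left 7 members tested and changed several single results. Its 6 calls between WT-DES and WT-veh were 5 higher and *Cr2* lower, *Pou2af1* was lost and *Tnfrsf13b* fell under the minimum. The *Cr2* interaction passed at −0.82 (limma adjusted p = 0.00772), that of *Ms4a1* failed at 0.74 and that of *Pou2af1* turned to −0.128. *Cr2* in αERKO-DES relative to WT-DES turned to 0.249. The other reversals were of values near 0. Between αERKO-veh and WT-veh, *Cd79a* went to −0.0121 (quantile) and −0.0499 (sample weights), and −0.0339 to 0.0349 leaving out 1 sample. *Cd22* went to 0.01 (rescaling without 20 genes) and 0.0414 (weights), and −0.019 to 0.012. *Tnfrsf13b* went to 0.132 (pseudocount 0.1), 0.0208 (rescaling) and 0.186 (weights), and −0.0916 to 0.119. Between αERKO-DES and αERKO-veh, quantile normalization gave 0.0194 for *Cd79b*, 0.0549 for *Ms4a1*, 0.0668 for *Blk* and 0.0639 for *Cd22*, and weights −0.0618 for *Cr2* and −0.13 for *Tnfrsf13b*. Leaving out 1 sample gave −0.0641 to 0.00742 for *Blk*, −0.0222 to 0.00879 for *Cd22* and −0.0317 to 0.147 for *Cr2*. Between αERKO-DES and WT-veh, *Cd22* went to 0.0441 (quantile), and leaving out 1 sample gave −0.0236 to 0.00316 for *Cd22* and −0.0104 to 0.2 for *Tnfrsf13b*. Of the remaining values for single members, 1073 kept direction and call, 10 lost the call and 9 gained it. With rescaling, the share of higher calls over all genes went from 63.1% to 92.4% between αERKO-veh and WT-veh, from 38% to 52.3% between αERKO-DES and WT-veh and from 52.4% to 78.8% for the interaction. Quantile normalization left 5 calls between αERKO-DES and αERKO-veh, 60% of them higher against 5.86%. Over all genes, the 239 calls of that comparison became 401 with a pseudocount of 0.1, 18 without a minimum, 133 with a minimum of 5 FPKM and 1119 with sample weights, and the 508 between αERKO-DES and WT-veh became 310 without a minimum, 790 in a model of only these groups and 1002 with sample weights.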
